A study of Mus musculus with 6 samples.

Results

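The genes described here encode integrins, tensins and the cytoplasmic proteins of focal adhesions, the plaques that tie a cell to the matrix beneath it. They were chosen by gene symbol, as the rows of the deposited read-count table whose symbol stands in a list of 46 genes, and all 46 were found among 22401 rows. The list was drawn up with results of this same contrast known. Its fold changes, counts and medians are therefore a description of these libraries and not evidence for a choice made independently of them.

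The study treated 4T1 cells, a mouse mammary gland epithelial cancer line that grows in culture, with P3FI-90, a small-molecule inhibitor of the histone demethylase KDM3B, and sequenced their mRNA. The P3FI-90 group had 3 libraries of cells given 10 µM of the compound for 24 h. The DMSO group had 3 libraries of cells given the vehicle for the same time. Both groups were cells of this 1 line with no labelled genetic change, kept in DMEM with fetal bovine serum, so neither another line nor tissue enters the comparison.

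Integrins are pairs of an alpha and a beta chain that span the membrane and bind matrix proteins outside the cell. Talin and kindlin bind the beta tail and switch the pair on, vinculin and the tensins link it to actin, and the kinases FAK and Src pass signals on through paxillin and the adaptors around it. In mammary epithelium, laminin-binding integrins hold cells on the basement membrane, while integrins that read the RGD motif bind fibronectin, vitronectin and the latent form of TGF-beta.

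The libraries held between 31327094 and 37395732 counts on rows with a gene identifier. Epithelial markers marked the cells as labelled, with Krt8, Krt18, Krt7 and Epcam among the abundant genes and Krt5 at 0 in every library. Their summed level was 154462 to 163268 normalized counts (counts brought to 1 effective library size, the mean of the 6) in DMSO and 63500 to 66634 after P3FI-90, and all 7 tested epithelial markers were lower. Leukocyte markers summed to 893 to 934 normalized counts in DMSO and 468 to 635 after P3FI-90, carried by Cd68 and Cd14, with Adgre1 at 0 throughout. Endothelial markers summed to 0 to 13.3 and 21.6 to 33.7. Fibroblast and mural markers summed to 1341 to 1387 and 925 to 1036, nearly all of it Pdgfra, with Lum at 0. The part of these shifts in the values that follow was not tested, and in bulk RNA fewer cells of a kind and less RNA per cell cannot be told apart. The labels do not say that libraries of a group came from separate cultures, so the spread between them may be technical.

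Of the 46 genes, 43 passed the filter on low counts. A gene was called where edgeR's quasi-likelihood test gave a Benjamini-Hochberg adjusted p below 0.05 over the 12288 genes tested. By this rule 19 were higher after P3FI-90 and 16 lower, while 8 were neither. Among all genes tested, 39.9% were higher, 39.4% lower and 79.3% either, so that 35 called genes of 43 (81.4%) is a share near the background. The groups did not overlap for 36 of the 43, beside 81.2% of all genes. The median log2 fold change of the 43 was 0.03 against 0.01 for all genes, and their median absolute log2 fold change was 0.41 against 0.55. An absolute log2 fold change of at least 1 together with a call was seen for 6 of the 43, beside 23.3% of all genes: Tns4 and Itga3, which fell, and Lims2, Lpp, Ptk2b and Itga10, which rose. Lims2 passed the filter only through the P3FI-90 group, so it could enter these counts only as a rise. Scaling by total counts in place of TMM moved the median of all genes to 0.23 and gave 25 higher and 10 lower calls in place of 19 and 16. It ended 6 of the lower calls (Itga7, Itgb4, Tns3, Fermt1, Ptk2 and Nedd9) and added 6 higher calls on genes not called before (Itga5, Itgb1, Fermt2, Git2, Pdlim5 and Pdlim7). Changes are therefore relative to the TMM scale, and small ones are given with that limit.

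**Figure D1:**
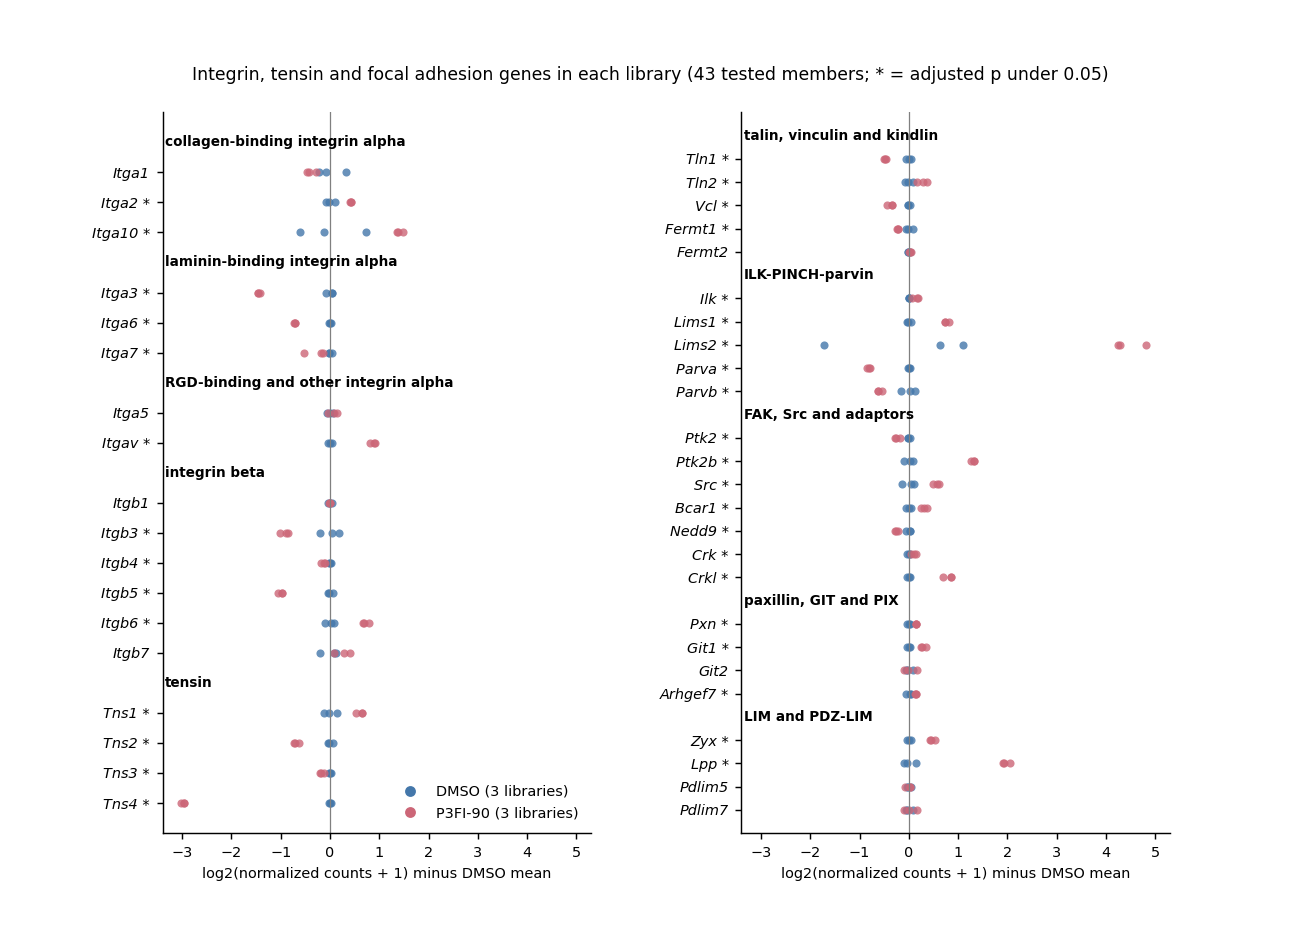
Each point is 1 library of a tested gene, placed by log2(normalized counts + 1) minus the DMSO mean, with 3 DMSO libraries in blue and 3 P3FI-90 libraries in red and genes grouped by role. An asterisk marks an adjusted p under 0.05. Tns4 and Itga3 lie farthest to the left after P3FI-90, and Lims2 and Lpp farthest to the right.

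Promoter sequence is shown for the 2 integrin genes that lost the most counts, Itga3 and Itgb5, for Itgav, the integrin gene that gained the most, and for Lpp, which had the largest rise among genes above 100 normalized counts, so that genes moving in opposite directions can be read side by side. Each stretch is the 250 bases before the outermost listed start in RefSeq's mouse annotation on GRCm38.p6, written 5′ to 3′ on the gene's own strand, with GC boxes (GGGCGG on either strand) in capitals. The coordinates are chr11:95076715-95076964 on the minus strand for Itga3, chr16:33829415-33829664 on the plus strand for Itgb5, chr2:83724147-83724396 on the plus strand for Itgav and chr16:24393100-24393349 on the plus strand for Lpp.
Itga3: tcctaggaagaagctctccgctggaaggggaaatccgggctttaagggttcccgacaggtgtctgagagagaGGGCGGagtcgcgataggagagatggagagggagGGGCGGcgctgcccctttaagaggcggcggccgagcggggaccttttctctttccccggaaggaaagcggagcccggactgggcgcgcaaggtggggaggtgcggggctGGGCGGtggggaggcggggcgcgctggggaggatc
Itgb5: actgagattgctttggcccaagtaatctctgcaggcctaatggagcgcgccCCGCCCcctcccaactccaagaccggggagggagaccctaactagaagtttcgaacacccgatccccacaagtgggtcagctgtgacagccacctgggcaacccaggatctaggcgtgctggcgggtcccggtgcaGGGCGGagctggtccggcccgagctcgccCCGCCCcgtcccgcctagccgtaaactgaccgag
Itgav: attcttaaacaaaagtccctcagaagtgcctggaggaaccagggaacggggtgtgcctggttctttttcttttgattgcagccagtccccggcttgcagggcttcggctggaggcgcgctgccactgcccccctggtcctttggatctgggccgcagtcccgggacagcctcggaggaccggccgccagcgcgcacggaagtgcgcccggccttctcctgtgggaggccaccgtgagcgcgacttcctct
Lpp: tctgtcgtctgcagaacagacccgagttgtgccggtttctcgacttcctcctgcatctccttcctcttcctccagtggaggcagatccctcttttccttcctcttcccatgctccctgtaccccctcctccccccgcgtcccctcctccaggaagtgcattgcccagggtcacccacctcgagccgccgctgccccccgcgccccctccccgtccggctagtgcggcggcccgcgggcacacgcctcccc
The Itga3 and Itgb5 stretches each held 3 GC boxes, and the Itgav and Lpp stretches held none. RefSeq's table had 47 promoters, from 250 bases before to 50 after the start, for 35 of the 46 genes. A GC box stood in 29 of the 47 (61.7%), beside 35.7% of 32851 promoters of all genes. They belonged to genes that rose, such as Src, Zyx and Itgav, to genes that fell, such as Itga3 and Tns3, and to Itgb1, which was not called. The GC box of Itgav stood in this longer window but not within the 250 bases printed above. The AP-1 site (TGANTCA) stood in 6.38% of the 47 and 7.81% of all, the TEAD site (GGAATG) in 8.51% and 14.7%, and the E-box (CACGTG) in 4.26% and 7.15%. The CArG box, the site read by serum response factor, stood in 6.38% and 1.63%, as 3 promoters of Fermt2, Itgb6 and Vcl. Both strands were searched and each motif was counted on its own, also where matches of different motifs overlapped. The promoters of all genes were not limited to genes that passed the filter on low counts, whereas most of the 46 genes did pass it. A match describes the letters of a promoter and says nothing of what binds there.

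Among the integrins, 14 of the 17 genes passed the filter, and 4 rose, 6 fell and 4 were neither. The share called was 71.4%, beside 79.3% of all genes. Levels per length were used to rank them, as CPM per kilobase of exon. In DMSO, Itgb1 stood first with 387 ± 9.43 (SD, n = 3 here and below), followed by Itga3 with 283 ± 14 and Itgb5 with 49.3 ± 1.58. Itga6, Itgav and Itgb4 came next with 21.7 ± 0.239, 18.4 ± 0.543 and 15.1 ± 0.143. Itga2 (12.0 ± 0.832) and Itga5 (11.5 ± 0.522) followed and did not differ beyond their spread, nor did Itgb3 (2.08 ± 0.280) and Itgb6 (2.01 ± 0.122) further down. After P3FI-90, Itgb1 (385 ± 4.42) and Itga3 (103 ± 2.08) still led, but Itgav (33.8 ± 1.31) came next, above Itgb5 (24.6 ± 0.809).

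**Figure D2:**
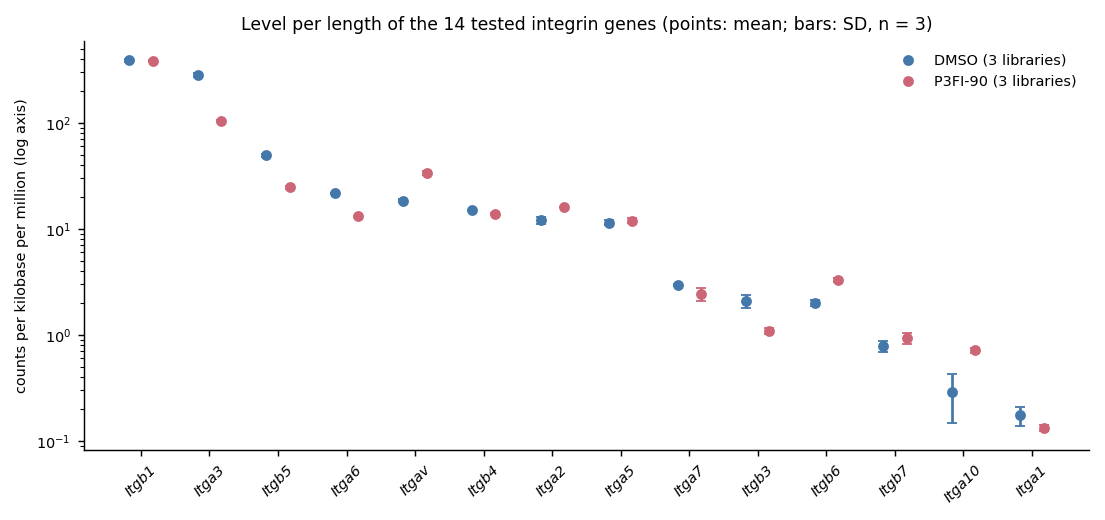
Level per length (CPM per kilobase of exon, log axis) of the 14 tested integrin genes, ordered by their DMSO level; points are means of 3 libraries and bars the SD, with DMSO in blue and P3FI-90 in red. Itga3 and Itgb5 sit lower and Itgav higher after P3FI-90, while Itgb1 lies at 387 and 385.

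All 3 laminin-binding alpha genes fell, beside 39.4% of all genes called lower, though the call of Itga7 did not hold under each alternative. Itga3 (ENSMUSG00000001507), the alpha chain that pairs with Itgb1 as a receptor for epithelial laminin, had 58525, 53433 and 57977 normalized counts in DMSO and 20400, 21154 and 20471 after P3FI-90. Every treated library was below every vehicle library, and the log2 fold change was −1.45 (SE 0.035), a 2.74-fold lower level. It was the second most abundant of the integrin genes in both groups. Itga6, which pairs with Itgb1 or with the hemidesmosomal chain Itgb4, fell from 6855 ± 75.8 to 4159 ± 37.5 normalized counts (log2 fold change −0.72, SE 0.033). Itga7, the laminin receptor chain best known from muscle, had 830, 865 and 829 normalized counts in DMSO and 757, 581 and 741 after P3FI-90. The groups lay apart, but the second P3FI-90 library was far below the other treated libraries. Its log2 fold change was −0.28 (SE 0.095), and without that library it was −0.17, no longer called (edgeR's adjusted p = 0.0688). Scaling by total counts also ended its call, at −0.07.

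Of the 4 collagen-binding alpha genes, Itga2 and Itga10 rose, Itga1 was not called and Itga11 was below the filter. Itga2 (ENSMUSG00000015533), the main collagen receptor chain of epithelia and platelets, had 2961, 3241 and 2834 normalized counts in DMSO and 4019, 4009 and 4015 after P3FI-90. Treated libraries were all higher and lay close together, and the log2 fold change was 0.42 (SE 0.049). Its sign turned when a trend with gene length and GC content was removed. Itga10, a collagen receptor chain of cartilage, was scarce at 44.5, 31.3 and 80.6 normalized counts in DMSO and 137, 126 and 127 after P3FI-90. The vehicle libraries scattered widely but stayed below the treated ones, with a log2 fold change of 1.30 (SE 0.29). In the GENCODE annotation, 30.6% of its 50-base windows are shared with Gm42957 on the same strand, a gene that is also in the table, so its counts are uncertain.

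Itga1, a collagen receptor chain of mesenchymal cells, had 96.1, 141 and 106 normalized counts in DMSO and 84.2, 81.8 and 92.1 after P3FI-90. The groups did not overlap, yet the 95% interval of the log2 fold change, −0.88 to 0.06, included 0. Itga11, found on fibroblasts, had no count in DMSO and 5, 0 and 3 counts after P3FI-90. Against a floor of 3 counts over the DMSO group this is at least 2.33-fold higher, or 1.17-fold with a floor of 6, as when each fragment counts for both its mates. Such floors and counting intervals cover counting error only.

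Among the alpha chains that bind the RGD motif or other ligands, Itgav rose, Itga5 was not called and Itga9 was below the filter. Itgav (ENSMUSG00000027087), the shared partner of Itgb1, Itgb3, Itgb5, Itgb6 and Itgb8, had 6761, 7162 and 6892 normalized counts in DMSO and 13129, 12181 and 12895 after P3FI-90. No treated library came near the vehicle range, and the log2 fold change was 0.88 (SE 0.038), 1.84-fold. Itga5, the alpha chain of the classical fibronectin receptor, had 2078, 1979 and 1897 normalized counts in DMSO and 2094, 2184 and 1940 after P3FI-90, with overlapping groups. Its log2 fold change had a 95% interval of −0.06 to 0.19, and scaling by total counts brought it to 0.28 and a call. Itga9, a receptor chain for tenascin and osteopontin, had 2 counts in DMSO and 4 after P3FI-90 over the 3 libraries of each group, a ratio of 1.75 with a counting interval of 0.251 to 19.3.

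The beta genes went in both directions: Itgb6 rose, Itgb3, Itgb4 and Itgb5 fell, Itgb1 and Itgb7 were not called and Itgb8 was below the filter. Itgb1 (ENSMUSG00000025809), the common partner of most alpha chains, had 55509, 56657 and 53966 normalized counts in DMSO and 54437, 55696 and 55159 after P3FI-90. The treated values fell inside the vehicle range, and the 95% interval of the log2 fold change was narrow, −0.06 to 0.05. Under scaling by total counts the value was 0.21 and was called, close to the shift of all genes. Itgb5, a vitronectin receptor chain, had 6363, 6059 and 5995 normalized counts in DMSO and 3138, 2955 and 3118 after P3FI-90. All treated libraries were well below the vehicle libraries, and the log2 fold change of −0.9998 (SE 0.040) lay just short of the threshold of 1. Itgb6, an epithelial chain whose pair with Itgav activates latent TGF-beta, had 505, 528 and 467 normalized counts in DMSO and 799, 800 and 861 after P3FI-90. It rose in every treated library, by a log2 fold change of 0.71 (SE 0.081).

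Itgb3, the beta chain of the vitronectin receptor of platelets and osteoclasts, fell from 431 ± 57.9 to 227 ± 13.5 normalized counts (log2 fold change −0.93, SE 0.13). Itgb4, the laminin-binding chain of hemidesmosomes, fell by less, from 3704 ± 35.1 to 3391 ± 99.4 (log2 fold change −0.13, SE 0.041), and under scaling by total counts the sign turned (0.09, not called). Itgb7, a chain of lymphocyte homing receptors, had 75.8 ± 8.72 and 90.6 ± 10.4 normalized counts, with a 95% interval of −0.22 to 0.74. Itgb8, the other chain that activates latent TGF-beta with Itgav, had 4, 0 and 0 counts in DMSO and 14, 4 and 6 after P3FI-90. The ratio was 5.24 with a counting interval of 1.8 to 20.8, on too few counts to enter the fit.

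The makeup of the integrin pool can be read without a scale between libraries, as each gene's share of the summed level per length. Itga3 made up 80.8 ± 1.07% of the alpha chains in DMSO and 56.9 ± 0.871% after P3FI-90, while Itgav went from 5.27 ± 0.352% to 18.6 ± 0.812%. Itga2 went from 3.45 ± 0.363% to 8.84 ± 0.0682% and Itga5 from 3.28 ± 0.173% to 6.60 ± 0.348%, so that the share of Itga5 was larger although its level was not called. Itga6 held 6.20 ± 0.237% and 7.24 ± 0.0164%, a higher share at a lower level. Among the beta chains, Itgb1 held 84.8 ± 0.273% and 89.8 ± 0.329%, and Itgb5 held 10.8 ± 0.341% and 5.75 ± 0.227%. The alpha to beta ratio of summed levels lay between 0.721 and 0.799 in the DMSO libraries and between 0.419 and 0.428 after P3FI-90. Itgav thus gained on Itga3. Their ratio ranged from 0.0614 to 0.0712 in DMSO and from 0.306 to 0.342 after P3FI-90. In counts, the 17 integrin genes took 0.382, 0.374 and 0.377% of each DMSO library and 0.328, 0.330 and 0.330% of each P3FI-90 library. Itga3 held 57833, 44366 and 56807 of their 142885, 117279 and 139307 counts in DMSO. After P3FI-90 it held 21802, 23527 and 20897 of 114255, 119646 and 109563. Itga3 thus carried the lower share and the lower alpha to beta ratio, and neither was a fall of all integrin genes. The groups did not overlap in any of these ratios or in the share of counts, and no test was made of them since the same values chose the genes.

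**Figure D3:**
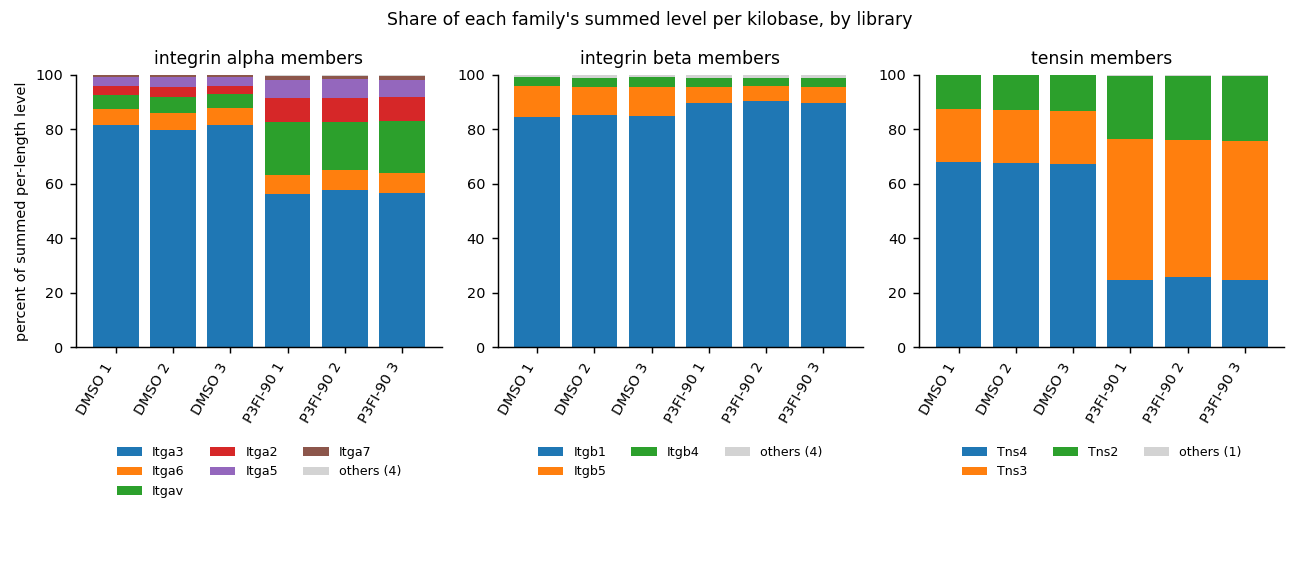
Stacked bars give, for each of the 6 libraries, the percent of the summed level per length taken by each gene among the integrin alpha, integrin beta and tensin genes. The Itga3 band shrinks from about 80.8% to 56.9% and the Tns4 band from 67.6% to 25.1%, and the Itgav and Tns3 bands widen after P3FI-90.

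Among the tensins, which bind integrin tails, 1 gene rose and 3 fell, beside 39.9% of all genes called higher and 39.4% lower. Tns4 (ENSMUSG00000017607), also called Cten, a short tensin of epithelia that lacks the actin-binding part of the others, had 16722, 16125 and 16569 normalized counts in DMSO and 2014, 2108 and 2104 after P3FI-90. The treated libraries agreed closely and stood far below the vehicle libraries. The log2 fold change of −2.99 (SE 0.037), a 7.94-fold lower level, was the largest fall of the 43 tested genes. Tns1, the actin-capping founder of the family, had 128, 105 and 113 normalized counts in DMSO and 165, 181 and 180 after P3FI-90. It rose without overlap, with a log2 fold change of 0.60 (SE 0.17), from a level per length of 0.205 ± 0.0205 that was the lowest of the tensins. Tns2 fell from 3285 ± 127 to 2035 ± 76.7 normalized counts (log2 fold change −0.69, SE 0.050). Tns3 fell slightly, from 10262 ± 87.9 to 9143 ± 263 (log2 fold change −0.17, SE 0.033), and its sign turned under scaling by total counts (0.05, not called). Tns4 made up 67.6 ± 0.414% of the summed tensin level per length in DMSO and 25.1 ± 0.561% after P3FI-90, when Tns3 took 51.0 ± 0.513%, up from 19.5 ± 0.167%.

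Of the 5 genes for talin, vinculin and kindlin, Tln1, Vcl and Fermt1 fell, Tln2 rose and Fermt2 was not called. Tln1, the talin of most cells, had 16203, 15621 and 16645 normalized counts in DMSO and 11374, 11606 and 11765 after P3FI-90. It was lower in every treated library, by a log2 fold change of −0.48 (SE 0.033). Tln2, its paralog in muscle and brain, had 1398, 1333 and 1486 normalized counts in DMSO and 1724, 1806 and 1583 after P3FI-90. The groups came close but did not meet, and the log2 fold change was 0.28 (SE 0.062). Its sign turned when a trend with gene length and GC content was removed. Vinculin (Vcl), which strengthens the talin to actin link, went from 11154 ± 168 to 8603 ± 324 normalized counts (log2 fold change −0.37, SE 0.036). The opposite-strand gene Ap3m1 covers 25.1% of its windows, and whether strand was used in counting was not stated. Fermt1, the kindlin of epithelia, fell from 2825 ± 138 to 2418 ± 19.1 (log2 fold change −0.22, SE 0.049), which was no longer called under scaling by total counts (−0.01). Fermt2, the widely expressed kindlin, had 4171 ± 69.3 and 4235 ± 87.5, with a 95% interval of −0.06 to 0.10, and was called at 0.24 under scaling by total counts.

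The ILK, PINCH and parvin proteins form a complex that joins the beta tail to actin, and its genes split. Lims1, the PINCH of most cells, rose from 4525 ± 131 to 7650 ± 258 normalized counts (log2 fold change 0.76, SE 0.038). Parva, the main parvin, had 4002, 4066 and 3932 normalized counts in DMSO and 2206, 2287 and 2311 after P3FI-90, wholly below. Its log2 fold change was −0.82 (SE 0.043), and Parvb fell as well, from 663 ± 68.4 to 435 ± 14.9 (log2 fold change −0.61, SE 0.095). Ilk, the pseudokinase at the centre of the complex, had 4764, 4769 and 4782 normalized counts in DMSO and 5323, 5426 and 4999 after P3FI-90. The rise was small, with a log2 fold change of 0.14 (SE 0.038), and Rrp8 and Taf10 on the opposite strand cover 89.7% of its exon bases, so its counts are uncertain.

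Lims2, the PINCH paralog, was at 6.07, 0 and 4.08 normalized counts in DMSO and at 91.7, 61.1 and 63.7 after P3FI-90. It was near the floor in every vehicle library and passed the filter only through the P3FI-90 group. Its fitted log2 fold change was 4.30 (SE 0.53), the largest of the list, but it was 1.47 on a log2(CPM + 1) scale. At its level after P3FI-90 it stood at 0.673 ± 0.158 CPM per kilobase, against 44.6 ± 1.51 for Lims1.

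All 7 genes of the FAK, Src and adaptor group were called, 5 higher and 2 lower, on a background of 79.3% called among all genes. Ptk2b (ENSMUSG00000059456), the calcium-responsive FAK paralog Pyk2, had 959, 1041 and 1082 normalized counts in DMSO and 2583, 2573 and 2449 after P3FI-90. Each treated library lay above all vehicle libraries, and the log2 fold change was 1.30 (SE 0.056). Ptk2, the gene of FAK itself, fell from 7569 ± 138 to 6404 ± 224 normalized counts, with a log2 fold change of −0.24 (SE 0.036) that was −0.03 and not called under scaling by total counts. Per length, FAK remained above its paralog, at 15.5 ± 0.541 against 9.77 ± 0.287 CPM per kilobase after P3FI-90, compared with 18.3 ± 0.334 against 3.96 ± 0.240 in DMSO.

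Src, the founding member of its kinase family, rose from 3146 ± 283 to 4613 ± 213 normalized counts (log2 fold change 0.55, SE 0.059). Crkl, an adaptor that couples these kinases to GTPase exchange factors, had 2831, 2919 and 2915 normalized counts in DMSO and 5256, 4678 and 5193 after P3FI-90, a log2 fold change of 0.80 (SE 0.048). Its paralog Crk, the most abundant of the group per length, had 10770, 11116 and 11083 normalized counts in DMSO and 11767, 11372 and 12172 after P3FI-90. The groups were close, and the call of Crk (log2 fold change 0.10, SE 0.034) was lost without DMSO library 1 (edgeR's adjusted p = 0.0748) or P3FI-90 library 3 (0.106), and under upper-quartile scaling (0.119). The scaffold genes went opposite ways. Bcar1, the p130Cas scaffold phosphorylated by Src, rose from 7633 ± 299 to 9477 ± 443 (log2 fold change 0.31, SE 0.042). Its relative Nedd9 had 1316, 1318 and 1243 normalized counts in DMSO and 1103, 1082 and 1066 after P3FI-90, all lower, with a log2 fold change of −0.25 (SE 0.058) that was −0.04 and not called under scaling by total counts.

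In the paxillin module, 3 of 4 genes rose by small amounts, beside 39.9% of all genes called higher. Paxillin itself (Pxn), the docking protein for FAK and vinculin, went from 7978 ± 155 to 8812 ± 27.9 normalized counts (log2 fold change 0.14, SE 0.032). Git1, an ARF GTPase-activating protein that binds paxillin, had 5931, 5676 and 5817 normalized counts in DMSO and 6954, 7353 and 6869 after P3FI-90. All treated libraries were higher, with a log2 fold change of 0.28 (SE 0.037). Its partner Arhgef7, the exchange factor beta-PIX, rose from 3791 ± 126 to 4183 ± 36.2 (log2 fold change 0.14, SE 0.039). The sign of Arhgef7 turned when a trend with gene length and GC content was removed. Git2 overlapped between groups, with 3840, 3555 and 3487 normalized counts in DMSO and 3604, 4080 and 3400 after P3FI-90, and a 95% interval of −0.11 to 0.16. Scaling by total counts brought it to 0.24 and a call.

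Among the LIM proteins, Lpp and Zyx rose, and Pdlim5 and Pdlim7 were not called. Lpp (ENSMUSG00000033306), a zyxin relative that shuttles between adhesions and the nucleus, had 1192, 1231 and 1400 normalized counts in DMSO and 4814, 4829 and 5272 after P3FI-90. Treated and vehicle libraries were far apart, with a log2 fold change of 1.96 (SE 0.063), 3.90-fold. Zyx, the gene of zyxin, which gathers at stretched adhesions and actin fibers, had 4476, 4241 and 4368 normalized counts in DMSO and 5952, 6328 and 5843 after P3FI-90. It was higher in all treated libraries, by a log2 fold change of 0.47 (SE 0.040). Per length, Zyx stood at 31.96 ± 1.35 CPM per kilobase after P3FI-90, still above Lpp at 6.43 ± 0.337. Pdlim5, a PDZ and LIM protein on actin fibers, had 4470, 4692 and 4521 normalized counts in DMSO and 4633, 4342 and 4639 after P3FI-90, with overlapping groups. Its 95% interval was −0.09 to 0.08, and that of Pdlim7, another of its family, was −0.11 to 0.17. Under scaling by total counts both were called, at 0.21 and 0.24.

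**Figure D4:**
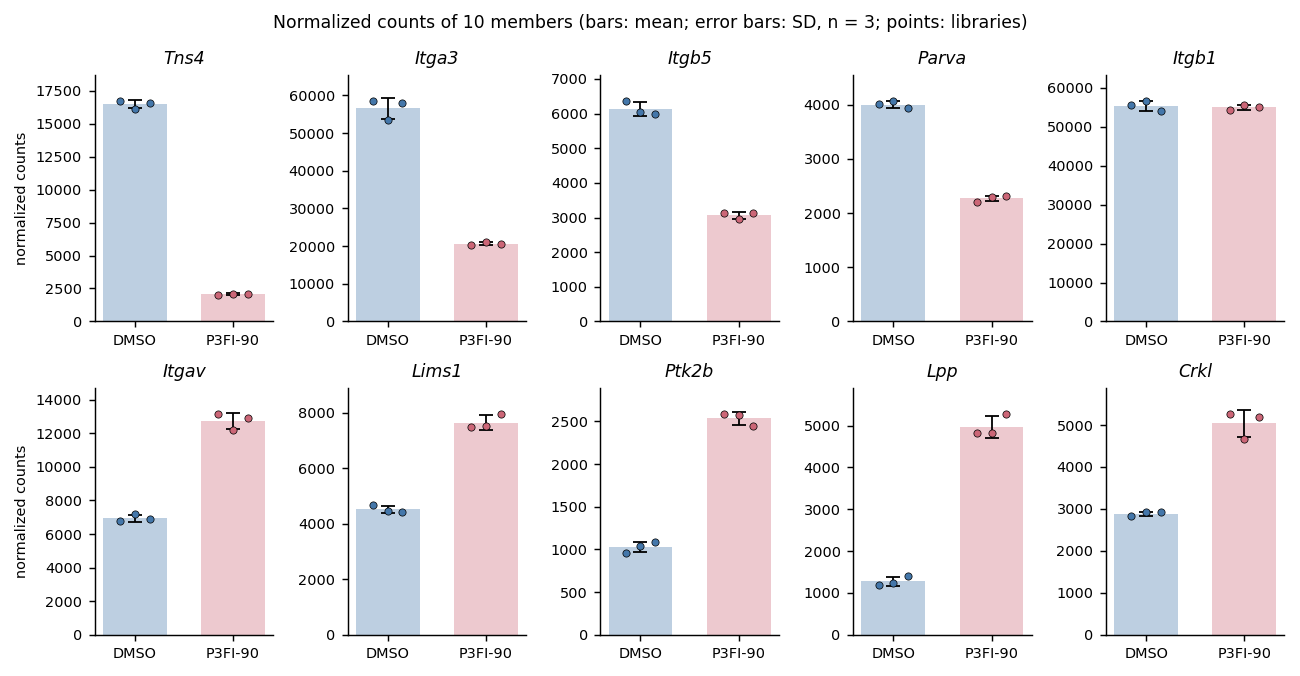
Normalized counts of 10 genes, with bars for the mean, error bars for the SD (n = 3) and points for single libraries, on linear axes that start at 0. Tns4, Itga3, Itgb5 and Parva stand lower after P3FI-90, Itgb1 is level at 55377 and 55097, and Itgav, Lims1, Ptk2b, Lpp and Crkl stand higher.

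Paralogs within a role did not follow 1 pattern. Tln2 rose and Tln1 fell, Ptk2b rose and Ptk2 fell, and Bcar1 rose and Nedd9 fell, although the falls of Ptk2 and Nedd9 were not called under scaling by total counts and the rise of Tln2 turned when a trend with gene length and GC content was removed. Tns1 rose while Tns2, Tns3 and Tns4 fell, although the sign of Tns3 turned under scaling by total counts. Other pairs went the same way, with Parva and Parvb both lower and Crk and Crkl, and Zyx and Lpp both higher. Crk lost its call in 3 alternatives, and its sign turned when the length and GC trend was removed. Lims2 passed the filter only through the P3FI-90 group, so its direction was not set beside that of Lims1. The pairs of this paragraph were picked out after the values were seen.

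The other genes of the adhesion pathway, 87 in lists drawn up alongside these 46, gave 70 tested genes. Of these, 23 were higher, 32 lower and 15 neither (78.6% called beside 79.3% of all genes, median log2 fold change −0.02). Scaling by total counts made this 35 higher and 24 lower. Among 13 tested regulators of integrin activation, 5 rose and 6 fell. Itgb1bp1, the ICAP protein that competes with talin for the Itgb1 tail, rose from 1207 ± 23.2 to 2054 ± 114 normalized counts (log2 fold change 0.77, SE 0.055). Flna, the filamin that holds integrin tails inactive and crosslinks actin, fell from 50526 ± 1849 to 23731 ± 394 (log2 fold change −1.09, SE 0.031). Actin linkers were mostly lower, with 8 of 12 tested genes lower and 1 higher, beside the backgrounds of 39.4% and 39.9%. The falls of Actn4 (log2 fold change −0.08, SE 0.032) and Sorbs2 (−0.14, SE 0.053) were small. They were smaller in size than the shift of all genes under scaling by total counts, so their direction depends on the scale. Nexn, an actin-binding protein of adhesions, had a log2 fold change of −1.51 (SE 0.12), and Enah, the elongation factor Mena, one of 0.24 (SE 0.036).

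All 8 tested LIM and paxillin relatives were called, beside 79.3% of all genes, with 4 in each direction and log2 fold changes of 0.63 (SE 0.040) for Trip6, a zyxin relative, and −1.47 (SE 0.065) for Pdlim2. Of 17 signalling genes, 5 rose and 7 fell, among them Fyn, a Src family kinase (log2 fold change 0.87, SE 0.099), and the GTPase gene Cdc42 (log2 fold change −1.09, SE 0.034). Of the 10 integrin genes outside the list, 4 were tested, 1 rose and 1 fell. Itgb2, the beta chain of leukocyte integrins, had 566, 625 and 415 normalized counts in DMSO and 269, 257 and 261.6 after P3FI-90 (log2 fold change −1.03, SE 0.14). Of the leukocyte markers, Cd14 fell with it, from 508 ± 33.7 to 215 ± 23.3 normalized counts (log2 fold change −1.24, SE 0.12), Cd68 was at 382 ± 45.2 and 330 ± 55.2 and not called, and the other 6 were at no more than 24.3 in any library. Their part in the level of Itgb2 was not tested.

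Integrin ligands made by the cells were called in 13 of 16 tested genes (81.2%), 7 higher and 6 lower. This share was near the 79.3% of all genes. The laminin chains Lama3 and Lamb3 rose by log2 fold changes of 1.35 (SE 0.061) and 1.66 (SE 0.035), while Lama5 fell (−0.31, SE 0.041). Spp1, osteopontin, an RGD ligand of integrins that hold Itgav, fell from 27075 ± 895 to 1654 ± 43.8 normalized counts (log2 fold change −4.03, SE 0.040), and Tnc, tenascin-C, rose from 199 ± 46.8 to 815 ± 69.3 (log2 fold change 2.03, SE 0.14). The laminin chains and Tnc were named after their values were seen. Icam1, the ligand of leukocyte integrins, rose from 157 ± 7.27 to 1216 ± 63.2 (log2 fold change 2.95, SE 0.087).

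**Figure D5:**
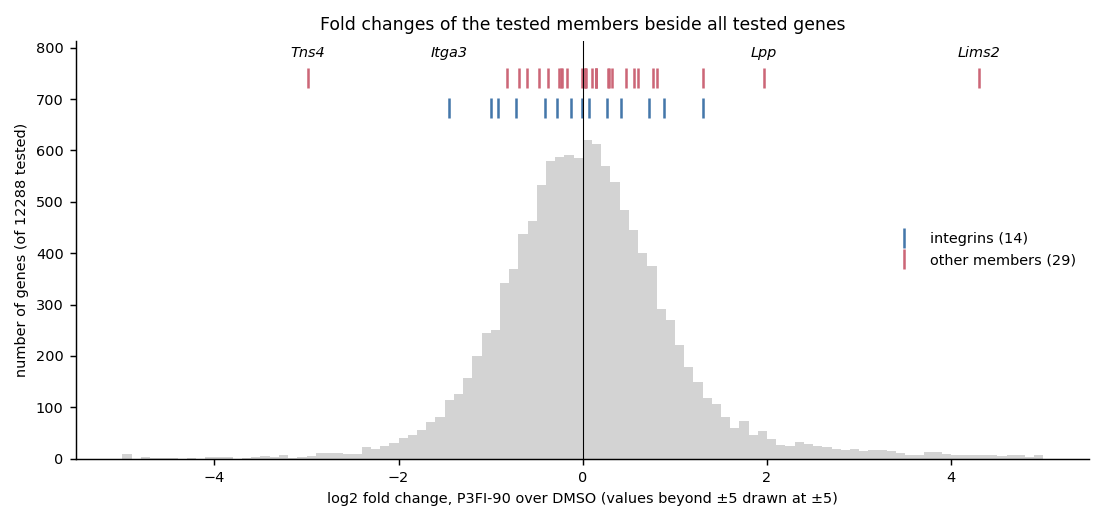
Grey bars count the 12288 tested genes by log2 fold change, P3FI-90 over DMSO, with values beyond 5 in size drawn at the edge, and ticks mark the 14 integrins (blue) and 29 other genes of the list (red). The ticks spread on both sides of 0 inside the range of all genes, with Tns4 at −2.99 and Lims2 at 4.30 at their ends.

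The 43 tested genes were measured with somewhat less spread than most, with a median coefficient of variation of 3.28% in DMSO and 3.74% after P3FI-90, beside 5.3% and 4.89% for all genes. They are also longer, with a median exon length of 5901 bases beside 4439, and longer genes collect more counts at the same level. Whether length bears on their spread was not tested. Removing the trend of fold change with length and GC content, an alternative chosen after seeing the data, moved the median of all genes to −0.10 and turned the sign of 4 called genes, Itga2 (−0.03), Tln2 (−0.26), Arhgef7 (−0.04) and Crk (−0.12). Of the 43 values, 27 others moved under it by at least the SE of their fitted fold change without a change of sign. Among them were Lpp, to 1.21, and Itgav, to 0.44. With 3 libraries against 3, an exact permutation test of a single gene could not go below p = 0.1, so the calls rest on the fit across all genes.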

How the data were processed

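mRNA of 4T1 cells was sequenced by the study, and the authors deposited 1 table of read counts per gene, not normalized. The submitters' processing notes name CASAVA, HISAT2 and StringTie and the build GRCm39, and the counting tool and its strand setting are not given in the sources used here. Counts of 2 were more frequent than counts of 1 (311 against 81 genes in DMSO library 1), as when both mates of a pair are counted. Rows without a gene identifier (285 of 22401, 0.483 to 0.556% of counts) were left out, and no column was left unused. The count test was edgeR 4.0.16 in R 4.3.3 (filterByExpr, TMM, glmQLFit and glmQLFTest), with Benjamini-Hochberg adjustment over 12288 genes. Groups came from the sample titles, and no batch is labelled. SEs were computed from the fold change and its F statistic, and 95% intervals from the same fit. Exon lengths and overlaps came from GENCODE M21 on GRCm38, matched by gene identifier, so no gene coordinates are given. The smallest library held 31327094 counts, and intervals on counts cover counting error only. Libraries with the same number did not deviate together (correlations −0.0214, 0.015 and 0.00491), and the fit was left unpaired. The fit was tested on simulated data in which few genes changed, unlike in these libraries, so that test does not cover the choice of scaling.

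The genes and all lists were chosen with earlier results of these data known. All 46 genes are named. Values in every library are given for genes called that changed by an absolute log2 value of at least 1 and reached 100 normalized counts in either group, and in each role for the most abundant gene per length and those of largest and smallest fold change. Of each other list, the largest called rise and fall with at least 100 normalized counts in a group are named. Alternatives were other scalings, filters, tests and a replicate block, and leaving out each library. Removal of a length and GC trend was chosen after seeing the data.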

Additional observations from a re-analysis of the deposited data

How the results depend on the processing

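Of 687 fold changes of the listed genes under 16 alternatives, 621 were counted as unchanged. This meant the same direction and the same side of the threshold. For removal of the length and GC trend, which had no test, it meant the same direction and a shift below the SE. Under scaling by total counts, 10 of the listed genes were lower, 35 other adhesion genes were higher, and the median of the listed genes was 0.24, while Pdlim5 (0.21), Itgb1 (0.21), Tns3 (0.0477) and Itgb4 (0.087) changed sign. Uncalled genes near 0 changed sign elsewhere. Itgb1 and Pdlim5 were at 0.0025 and 0.0027 with DESeq2 size factors, 0.0025 and 0.0028 with DESeq2's Wald test and 0.0111 and 0.0112 with at least 10 counts in every library. With the upper quartile, Fermt2, Pdlim7 and Git2 were at −0.0163, −0.0085 and −0.012. Removing a length and GC trend, chosen after seeing the data, which moved the median of all genes to −0.10 and that of the listed genes to −0.12, put Fermt2 at −0.0767, Itga2 at −0.0274, Git2 at −0.42, Arhgef7 at −0.0425, Crk at −0.12 and Tln2 at −0.26; the cause was not tested. Under it 27 more of the 43 values moved without changing sign. This trend held 3.09% of the variance across genes. Counting rows without a gene identifier put the integrin share after P3FI-90 at 0.3278%.

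Leaving out 1 library at a time gave 18 to 19 listed genes higher and 15 to 16 lower, with a median of 0.01 to 0.08. Itgb1 then ranged from −0.0298 to 0.0043, Pdlim5 from −0.0279 to 0.0214, Pdlim7 from −0.0494 to 0.0846 and Git2 from −0.0533 to 0.0783. With the replicate number as a block, 19 listed genes were higher and 16 lower, and the block changed no call among them. Without DMSO library 1 or P3FI-90 library 3 Crk lost its call, as did Itga7 without P3FI-90 library 2 and under scaling by total counts. Genes below the filter, Itga9, Itga11 and Itgb8, are limited by depth.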
